A study of Mus musculus with 4 samples.

Results

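Leukocyte adhesion molecules and integrins were described across the cells of mouse tumours: Icam1, Vcam1, Sele, Selp, Selplg, Itgal, Itgb2, Itga4, Itgae and Cd44. These 10 genes were chosen by name and not by a rule on measured values, but with earlier results of these data known. All 10 were found among the 55450 genes counted. The tumours were grown under the skin of the left flank of 8-week-old C57BL/6J mice injected with cells of MC38, a line from a mouse colon carcinoma. In one group the injected cells were Hnrnpa2b1 KO (2 tumours, KO tumours 1 and 2), and in the other they were WT (2 tumours, WT tumours 1 and 2). Hnrnpa2b1 encodes an RNA-binding protein, and the host mice are not described as edited, so the KO applies to the injected cells. Whether the KO line is 1 clone, and whether each tumour came from a separate mouse, is not stated in the labels, so p-values measure the spread between these tumours.

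Leukocytes leave the blood in steps that these genes serve. Sele and Selp encode E-selectin and P-selectin, which endothelial cells show to passing leukocytes, and Selplg encodes PSGL-1, the leukocyte glycoprotein that selectins bind during rolling. Icam1 and Vcam1 encode immunoglobulin-family ligands for firm adhesion. ICAM-1 is bound by LFA-1, the pair of the alpha chain encoded by Itgal and the beta chain encoded by Itgb2, and VCAM-1 is bound by VLA-4, whose alpha chain is encoded by Itga4. Itgae encodes the alpha E chain (CD103), whose integrin binds E-cadherin and marks tissue-resident T cells and some dendritic cells, and Cd44 encodes a receptor for hyaluronan. Inflammatory cytokines that act through NF-kappaB and STAT factors are known to induce Icam1, Vcam1 and Sele in endothelium.

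Promoter sequences are shown for the 3 ligands with the largest changes in endothelial cells below, because NF-kappaB and STAT motifs can be looked up in them. Of the 10 genes, 5 had a promoter in the RefSeq table of GRCm38.p6 (250 bases before to 50 bases after the gene start, on the strand of the gene). Capitals mark matches to a kappaB motif (GGANNTTCC) or a GAS motif (TTCNNNGAA), searched on both strands, and no match to an ISRE motif (GAAA, any 2 bases, then GAAA) was found in the 5. The Icam1 promoter is at chr9:21015690-21015989 on the plus strand, the Sele promoter at chr1:164047984-164048283 and the Selp promoter at chr1:164115014-164115313, both also on the plus strand.
Icam1: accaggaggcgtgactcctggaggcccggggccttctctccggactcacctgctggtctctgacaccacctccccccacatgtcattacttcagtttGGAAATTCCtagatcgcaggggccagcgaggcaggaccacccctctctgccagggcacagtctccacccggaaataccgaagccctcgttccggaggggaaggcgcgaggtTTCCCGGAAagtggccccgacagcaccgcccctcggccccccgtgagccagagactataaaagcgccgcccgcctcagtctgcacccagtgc
Sele: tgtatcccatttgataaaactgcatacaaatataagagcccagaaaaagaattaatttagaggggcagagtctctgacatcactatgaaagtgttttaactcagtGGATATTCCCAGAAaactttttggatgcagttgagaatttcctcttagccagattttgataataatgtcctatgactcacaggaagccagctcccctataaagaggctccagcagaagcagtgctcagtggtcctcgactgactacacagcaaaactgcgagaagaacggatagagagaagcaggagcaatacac
Selp: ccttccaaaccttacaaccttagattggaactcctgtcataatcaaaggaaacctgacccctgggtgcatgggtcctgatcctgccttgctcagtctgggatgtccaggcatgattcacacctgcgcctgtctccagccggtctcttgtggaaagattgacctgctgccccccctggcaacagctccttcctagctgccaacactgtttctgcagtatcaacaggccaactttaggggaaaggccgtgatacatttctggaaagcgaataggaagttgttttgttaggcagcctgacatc

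Icam1 held the kappaB match GGAAATTCC at base -153 and the GAS match TTCCCGGAA at base -42, counted from the start site. In Sele the kappaB match GGATATTCC at base -145 overlapped the GAS match TTCCCAGAA at base -140. None of the motifs was found in the windows of Selp, Itga4 and Cd44. Among 32851 promoters of the same length, 4.26% held the kappaB motif, 8.3% the GAS motif and 3.44% the ISRE motif, so a match is a description of the sequence and not a binding site.

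In the GENCODE vM21 annotation of GRCm38 (mm10), the ligands lie at chr9:21015985-21028817 (Icam1, plus strand), chr3:116109949-116129688 (Vcam1, minus strand), chr1:164048234-164057677 (Sele, plus strand) and chr1:164115264-164150026 (Selp, plus strand), so that both selectin genes are neighbours on chromosome 1. The receptors on leukocytes lie at chr5:113818536-113832644 (Selplg, minus strand), chr7:127296260-127335138 (Itgal, plus strand), chr10:77530252-77565708 (Itgb2, plus strand), chr2:79255426-79333123 (Itga4, plus strand), chr11:73090583-73147446 (Itgae, plus strand) and chr2:102811141-102901665 (Cd44, minus strand). UMI counts are per gene and do not separate exons or transcript variants.

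The tissue was digested without a stated sorting step and measured by droplet single-cell RNA sequencing, in which each RNA molecule is counted once as a unique molecular identifier (UMI). The libraries held 114136609 and 132490304 UMIs for the KO tumours and 153162562 and 123655955 UMIs for the WT tumours, and 8648 and 8771 KO cells and 11344 and 10173 WT cells were analysed. Pairs of libraries shared 23 to 43 cell barcodes. Classes were named from marker genes and mean cells like that type. No cluster could be named from the epithelial list, whose 8 markers summed to 54.3 and 57.2 CPM (UMIs per 1000000 UMIs) in KO tumours and 45.0 and 37.8 CPM in WT tumours in the clusters concerned. These clusters had under 1 UMI of Xist and of Ptprc (CD45) per 10000 and are called Xist-low cells. They held 53.2% and 72.1% of all UMIs in KO tumours and 89.6% and 89.8% in WT tumours. Hnrnpa2b1 had 379 and 320 CPM in KO Xist-low cells and 549 and 545 CPM in WT Xist-low cells. Where the gene was edited is not given in the sources used here. Counts outside the edited stretch do not check the knockout.

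The level of a gene in a class is its UMIs per 1000000 UMIs of that class in a tumour (CPM), and changes are log2 fold changes of KO over WT with their standard error. A gene was called when its p-value from the quasi-likelihood test of edgeR, with Benjamini-Hochberg adjustment over all genes tested in the class, was under 0.05. Levels are not per length and were compared between classes for 1 gene, not between genes. Intervals and floors given below cover counting error only.

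The classes differed in which of these genes they held, with overlap for several of them. Averaged over the 4 tumours, Icam1 was at 426 CPM in neutrophils, 357 CPM in endothelial cells, 172 CPM in T and NK cells, 125 CPM in dendritic cells, 117 CPM in fibroblasts and 82.6 CPM in mononuclear phagocytes, with the ranges over tumours of neighbours in this order overlapping. Xist-low cells stood below all of these at 1.42 to 7.13 CPM. Vcam1 had its highest mean in endothelial cells at 282 CPM, followed by Xist-low cells at 176 CPM and fibroblasts at 149 CPM with overlapping ranges, and it was lowest in T and NK cells and dendritic cells, at 19.4 and 18.3 CPM. Sele and Selp were endothelial RNAs. The next class had a mean of 1.32 CPM for Sele (fibroblasts), against 152 CPM in endothelial cells, and of 19.9 CPM for Selp (neutrophils), against 349 CPM. The ranges overlapped there, because the endothelial sum of WT tumour 2 was low.

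The receptors of these ligands lay on leukocytes. Selplg averaged 505 CPM in T and NK cells and 335 CPM in dendritic cells, with overlapping ranges, and 2.49 to 28.1 CPM in endothelial cells. Itgal, at 318 CPM in T and NK cells, did not overlap with its next class, neutrophils at 76.3 CPM. Itgb2, the beta chain that Itgal shares with the myeloid integrins, was highest in mononuclear phagocytes at 441 CPM, without overlap with T and NK cells at 211 CPM. Dendritic cells were highest for Itga4, at 292 CPM against 122 CPM in T and NK cells, again without overlap. Itgae was at 36.7 CPM in dendritic cells and 33.5 CPM in T and NK cells, which overlapped. Within T and NK cells it lay mainly in regulatory T cells and gamma-delta T cells. Cd44 was found in every class, from 1184 CPM in neutrophils and 552 CPM in mononuclear phagocytes down to 45.9 CPM in endothelial cells, the lowest, whose range did not overlap with that of the class above it, dendritic cells at 213 CPM.

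**Figure D1:**
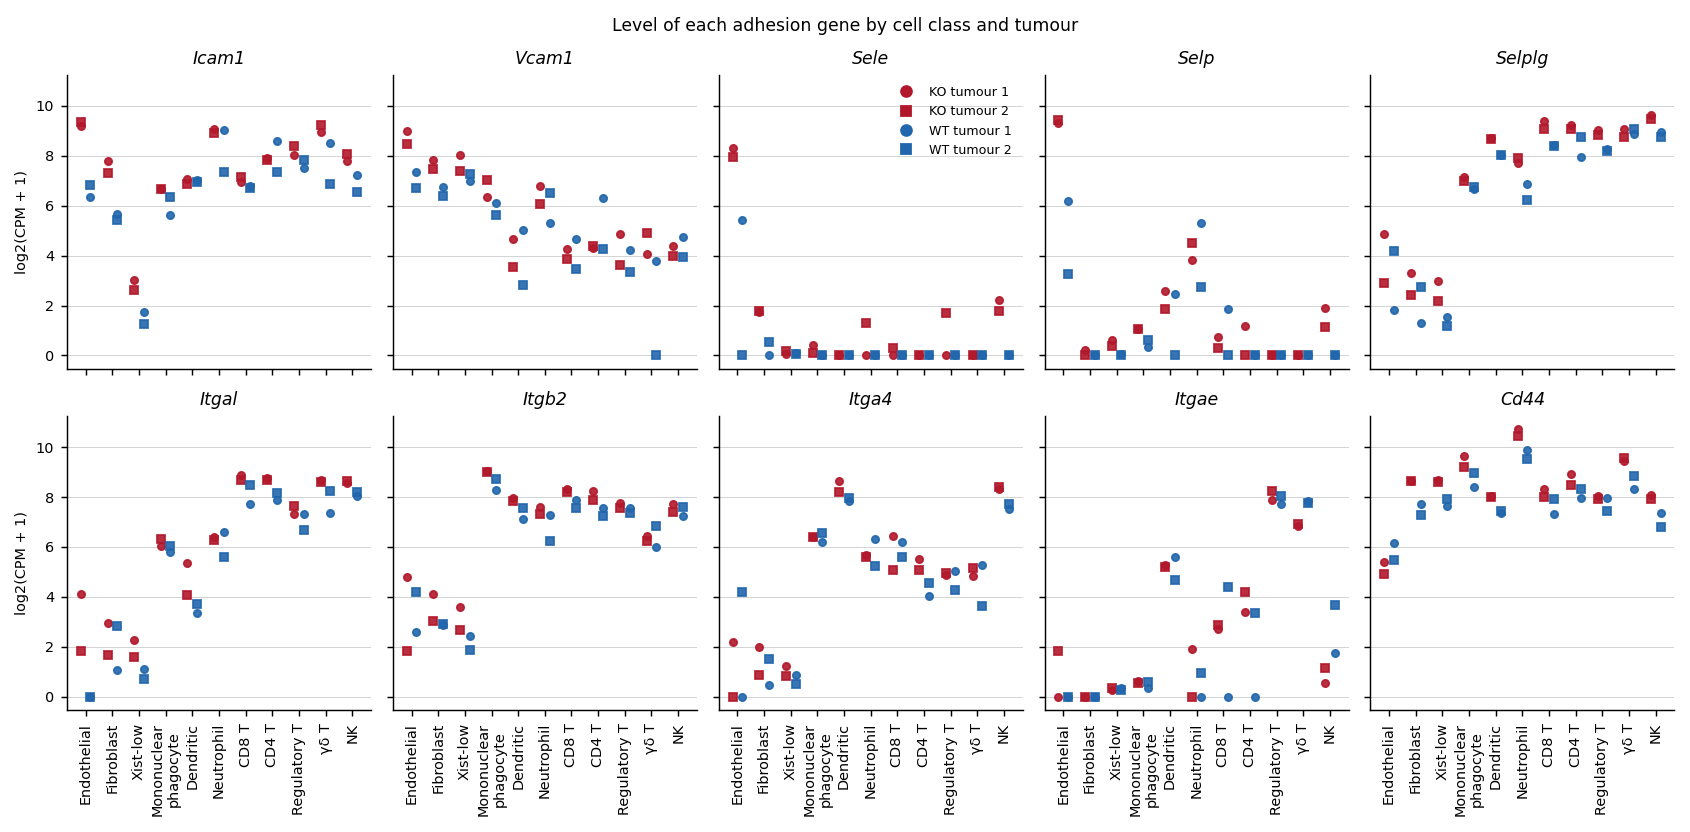
CPM within the class (log scale, on value plus 1) for the 10 genes, with KO tumours left of WT tumours and 1 point for each tumour in each class. Sele and Selp stand out in endothelial cells and Itgal in T and NK cells. Itgb2 is highest in mononuclear phagocytes, with some overlap with CD8 T cells, and Itga4 is high in both dendritic cells and NK cells.

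Endothelial cells of KO tumours had more RNA of all 4 ligands that recruit leukocytes. Icam1 had 586 and 648 CPM in KO tumours, against 79.8 and 112 CPM in WT tumours. Vcam1 had 512 and 352 CPM in KO tumours, against 160 and 104 CPM in WT tumours. Both KO tumours lay above both WT tumours for each gene. Selp had 634 and 681 CPM in KO tumours (541 and 534 UMIs), against 72.3 and 8.64 CPM in WT tumours (29 UMIs and 1 UMI). Sele had 320 and 244 CPM in KO tumours (273 and 191 UMIs), against 42.4 and 0 CPM in WT tumours (17 UMIs and 0 UMIs). The count of 0 in WT tumour 2 has a 95% Poisson interval that reaches 31.9 CPM, and the floor of 3 UMIs there is 25.9 CPM. For both selectins the groups did not overlap, and WT tumour 2 was the lowest of the 4.

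The edgeR quasi-likelihood test called 4 of the 7 genes that passed the count filter in endothelial cells, all higher in KO, where 1.73% of the 7521 genes tested were called in either direction. The log2 fold changes were 2.74 ± 0.286 for Icam1 (adjusted p = 0.00502), 3.59 ± 0.416 for Selp (adjusted p = 0.00801), 3.14 ± 0.481 for Sele (adjusted p = 0.0242) and 1.59 ± 0.294 for Vcam1 (adjusted p = 0.0301). The median over the 7 genes was 1.59, beside -0.001 over all genes tested. Cd44 lay the other way, at 41.0 and 29.3 CPM in KO tumours and 69.8 and 43.2 CPM in WT tumours, and did not pass (log2 fold change -0.84 ± 0.364, adjusted p = 0.291 by the same edgeR test). It was the only member below WT in both KO tumours. Selplg, at 28.1 and 6.38 CPM in KO tumours and 2.49 and 17.3 CPM in WT tumours, and Itgb2, at 27.0 and 2.55 CPM in KO tumours and 4.99 and 17.3 CPM in WT tumours, overlapped and did not pass. Itgal, Itga4 and Itgae did not pass the count filter. The filter asks for enough UMIs in at least 2 tumours. Sele and Selp, with 0 UMIs and 1 UMI in WT tumour 2, would not have met it from the WT tumours alone. They entered the test through the KO tumours, where they were high, so the count of 4 of 7 and the median of 1.59 depend on that group.

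This comparison rests on 55 and 80 endothelial cells in KO tumours and 55 and 19 in WT tumours. WT tumour 2 lies under the planned minimum of 25 cells, and the comparison was added after the cell numbers were seen. Vcam1 was no longer called when KO tumour 1 was left out (log2 fold change 1.35, adjusted p = 0.086, edgeR) or with doublets kept (log2 fold change 1.42, adjusted p = 0.113). Sele was not called by DESeq2 (log2 fold change 3.55, adjusted p = 0.399). Without WT tumour 1 the fitted log2 fold changes of Selp and Sele were 6.16 and 10.4, computed against 1 UMI and 0 UMIs, so that their size is set by WT tumour 1. Without WT tumour 2 all 4 genes were called.

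The share of endothelial cells with at least 1 UMI followed the levels. Icam1 was found in 78.2% and 72.5% of endothelial cells of KO tumours, against 27.3% and 31.6% in WT tumours. Selp was found in 47.3% and 40.0% in KO tumours, against 12.7% and 5.26% in WT tumours. KO cells held more UMIs, with medians of 12414 and 8560 in KO tumours and 6415 and 4611 in WT tumours. With each cell thinned to 1000 UMIs, which left out 0 and 4 KO cells and 7 and 2 WT cells, Icam1 was found in 38.2% and 29.0% in KO tumours against 10.4% and 17.7% in WT tumours. Selp was then found in 27.3% and 29.0% in KO tumours, against 6.25% and 0% in WT tumours, and Sele in 20% and 18.4% in KO tumours, against 8.33% and 0% in WT tumours. For background, Selp was found without thinning in 0.48% and 0.12% of T and NK cells of KO tumours and 0.29% and 0.15% of those of WT tumours, whose median depths were 3898.5 and 2825.5 UMIs and 1983 and 2064 UMIs.

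The endothelial markers themselves were close, with all 10 above 0 in each tumour and a sum of 8004 and 8070 CPM in KO tumours and 7359 and 6941 CPM in WT tumours. Markers of other classes moved within these cells. The 12 T and NK markers summed to 138 and 93.1 CPM in KO tumours (11 and 9 above 0) and 22.4 and 8.64 CPM in WT tumours (5 and 1 above 0). The 12 markers of mononuclear phagocytes summed to 381 and 213 CPM in KO tumours and 209 and 804 CPM in WT tumours, and the 10 fibroblast markers to 301 and 142 CPM in KO tumours and 496 and 709 CPM in WT tumours. The 10 neutrophil markers summed to 341 and 25.5 CPM in KO tumours (9 above 0 in each) and 0 and 17.3 CPM in WT tumours (0 and 2 above 0). T and NK cells themselves held 0.77 and 0.67 CPM of Sele and 1.20 and 0.34 CPM of Selp in KO tumours. Of Icam1 they held 186 and 220 CPM in KO tumours, and neutrophils held 529 and 486 CPM. The part of the markers of other classes in the result was not tested.

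**Figure D2:**
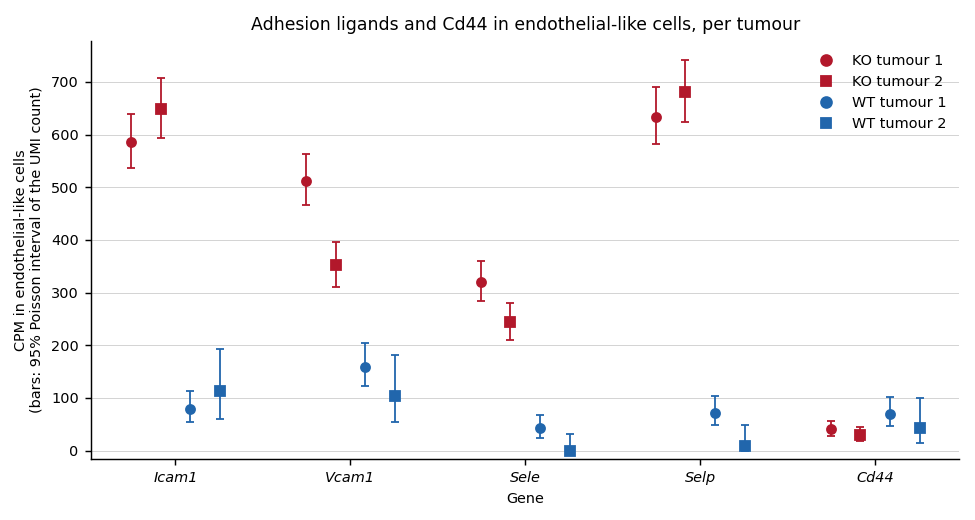
CPM in endothelial cells for Icam1, Vcam1, Sele, Selp and Cd44 (linear scale), with KO tumours left of WT tumours. Each point is 1 tumour with its exact 95% Poisson interval, which covers counting error only. Both KO tumours lie above both WT tumours for Icam1, Vcam1, Sele and Selp, and below both for Cd44.

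Fibroblasts showed the same order for Icam1, but no gene of 11574 passed in this class (0% called by edgeR, with 1548 genes at an unadjusted p under 0.05 and 170 called by DESeq2). Icam1 had 218 and 159 CPM in KO tumours, against 49.8 and 41.7 CPM in WT tumours, without overlap (log2 fold change 2.12 ± 0.262, adjusted p = 0.181 by edgeR and 2.26e-05 by DESeq2). Vcam1 had 229 and 178 CPM in KO tumours and 106 and 83.5 CPM in WT tumours, also without overlap (log2 fold change 1.19 ± 0.256, adjusted p = 0.219 by edgeR). Cd44 had 398 and 395 CPM in KO tumours and 212 and 154 CPM in WT tumours (log2 fold change 1.20 ± 0.273, adjusted p = 0.229 by edgeR). None of these is a call by the main test.

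The cluster makeup of fibroblasts differed between tumours of the same group. The cluster led by Col14a1 and Clec3b held 291 and 77 KO cells and 43 and 184 WT cells, and within it Icam1 had 254 and 272 CPM in KO tumours and 131 and 64.2 CPM in WT tumours. The cluster led by Tnc and Lrrc15 held 72 and 160 KO cells and 143 cells of WT tumour 1, and within it Icam1 had 138 and 140 CPM in KO tumours and 42.2 CPM in WT tumour 1. Summed fibroblast markers were 83217 and 61102 CPM in KO tumours and 36523 and 44436 CPM in WT tumours, and their part in the result was not tested. Mural cells, with 2 cells in WT tumour 2, were not tested, and had 92.7 and 81.8 CPM of Icam1 in KO tumours and 19.8 CPM in WT tumour 1.

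Whether Icam1 changed more in one class than in another was tested as the difference between its change there and its change in mononuclear phagocytes, in 1 edgeR model over the classes. The change in endothelial cells was larger by 2.14 ± 0.473 on the log2 scale (adjusted p = 0.0338), where 0.544% of 13970 genes were called for this difference. The change in fibroblasts was larger by 1.52 ± 0.405 (adjusted p = 0.0438), where 3% of 14537 genes were called, and with T and NK cells split into their types by 1.49 ± 0.38 (adjusted p = 0.0169), where 3.65% of 12881 genes were called. In the model that also held endothelial cells it was 1.36 ± 0.401 and did not pass (adjusted p = 0.0775). Of 60 such differences of the 10 genes in the model with endothelial cells, 1 passed, and of 45 in the model without them, 1 passed. With T and NK cells split, 2 of 81 passed. The other one was Selplg, whose change in Xist-low cells was larger by 1.10 ± 0.337 (adjusted p = 0.0401), where 6.86% of 12881 genes were called. The differences for Selp, Vcam1 and Cd44 in endothelial cells were 2.21 ± 0.981, 0.68 ± 0.443 and -1.65 ± 0.458 on the log2 scale and did not pass (adjusted p = 0.473, 0.706 and 0.121 by edgeR).

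Xist-low cells expressed Cd44 and Vcam1 and had little of the other 8 genes. Cd44 had 414 and 382 CPM in KO tumours, against 201 and 239 CPM in WT tumours, without overlap. Its log2 fold change was 0.80 ± 0.133 (adjusted p = 0.0268). The edgeR test called 4 of 9 genes tested, all higher in KO, where 8.27% of 17964 genes were called (4.27% higher and 4% lower). Without KO tumour 1 none of the 9 was called, and the adjusted p of Cd44 was 0.0694. Without KO tumour 2 it was 0.069. Itgal and Itgb2, not called in the main test, had log2 fold changes of 2.16 and 1.56 without WT tumour 1.

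The higher Cd44 was also seen cluster by cluster. The cluster led by Gja4 and Nppb, which held 915 and 1344 KO cells and 218 and 356 WT cells, had 430 and 398 CPM in KO tumours and 225 and 284 CPM in WT tumours. In the cluster led by Aqp5 and Hes1, with 32 and 27 KO cells and 2162 and 1193 WT cells, Cd44 had 391 and 441 CPM in KO tumours and 186 and 216 CPM in WT tumours. All 6 clusters with at least 25 cells from each tumour had Cd44 higher in both KO tumours than in both WT tumours. The 2 clusters led by Lbp, with at least 25 cells in WT tumours only, had the lowest Cd44 of the class for each WT tumour and high Vcam1. The one led by Lbp and Id3 also met the marker count for fibroblasts. In it, Vcam1 had 339 and 311 CPM and Cd44 had 126 and 163 CPM in WT tumours 1 and 2.

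Vcam1 over all Xist-low cells had 259 and 167 CPM in KO tumours and 127 and 151 CPM in WT tumours. KO tumour 1 was highest, and KO tumour 2 lay close to WT tumour 2. The log2 fold change of 0.55 ± 0.191 did not pass (adjusted p = 0.117, edgeR).

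**Figure D3:**
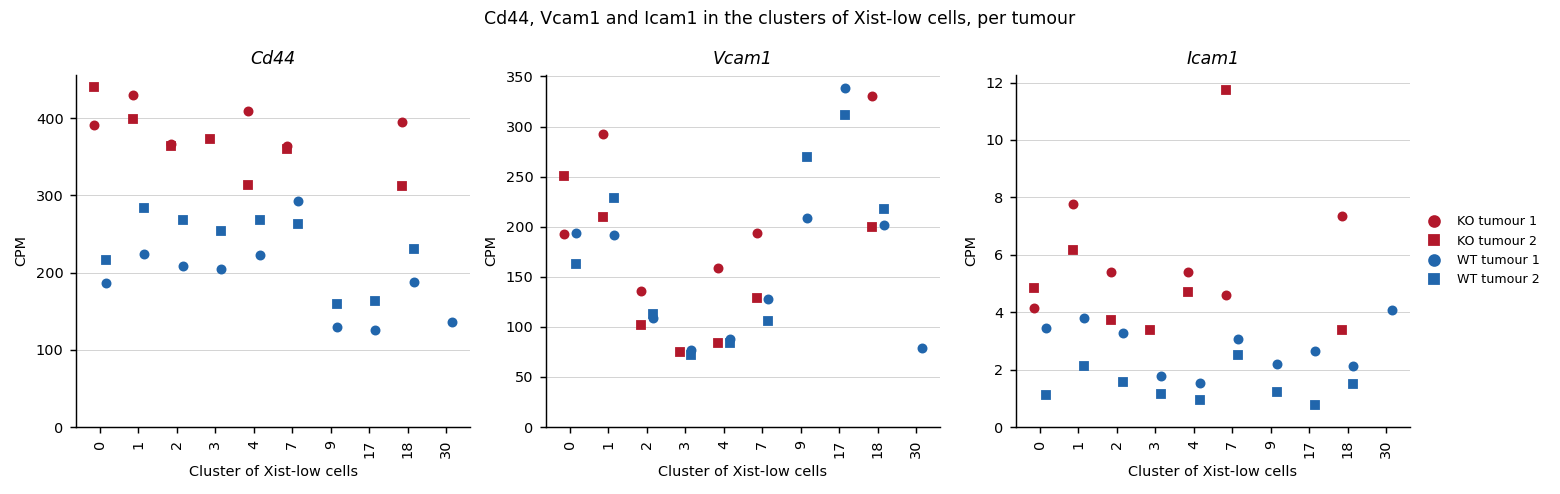
Cd44, Vcam1 and Icam1 in the clusters of Xist-low cells (CPM within the cluster in a tumour, linear scale), with KO tumours left of WT tumours in each cluster and 1 point for each tumour with at least 25 cells. Cd44 is higher in both KO tumours in the 6 clusters with points from all 4 tumours, whereas Vcam1 varies more between clusters than between the groups.

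The other calls in Xist-low cells were at low levels. Icam1 had 7.13 and 5.13 CPM in KO tumours, against 2.38 and 1.42 CPM in WT tumours (log2 fold change 1.62 ± 0.297, adjusted p = 0.0317 by edgeR). Selplg had 6.91 and 3.55 CPM in KO tumours, against 1.92 and 1.24 CPM in WT tumours (log2 fold change 1.64 ± 0.355, adjusted p = 0.0424 by edgeR). Selp had 29 and 25 UMIs in KO tumours, against 4 UMIs and 1 UMI in WT tumours (0.53 and 0.30 CPM against 0.04 and 0.01 CPM), and was called at a log2 fold change of 3.98 ± 0.636 (adjusted p = 0.0248, edgeR). Selp would not have met the count filter from the WT tumours alone and entered the test through its UMIs in KO tumours. The groups did not overlap for any of the 3. Leukocyte markers moved in the same direction in these cells, with Ptprc at 15.8 and 8.55 CPM in KO tumours and 5.40 and 2.96 CPM in WT tumours. The 12 T and NK markers, all above 0, summed to 49.1 and 24.5 CPM in KO tumours and 10.7 and 6.31 CPM in WT tumours, and the 12 markers of mononuclear phagocytes to 167 and 126 CPM in KO tumours and 117 and 53.3 CPM in WT tumours. Their part in the result was not tested. Thinned to 1000 UMIs, 0.66% and 0.39% of Xist-low cells had Icam1 in KO tumours, against 0.2% and 0.18% in WT tumours, and none had Selp. Without KO tumour 1 the adjusted p was 0.0506 for Icam1, 0.111 for Selplg and 0.0567 for Selp, and without WT tumour 2 it was 0.0575 for Selplg.

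In T and NK cells, which carry the receptors of these ligands, none of the 8 genes tested passed, where 2.3% of 12570 genes were called. Selplg had 673 and 568 CPM in KO tumours and 386 and 395 CPM in WT tumours (log2 fold change 0.57 ± 0.171, adjusted p = 0.11 by edgeR). Itgal had 410 and 385 CPM in KO tumours and 200 and 277 CPM in WT tumours (log2 fold change 0.63 ± 0.224, adjusted p = 0.16). Itgb2 had 271 and 235 CPM in KO tumours and 168 in both WT tumours (log2 fold change 0.50 ± 0.159, adjusted p = 0.128). For each of the 3 the KO tumours lay above the WT tumours. Without WT tumour 2, their log2 fold changes were 0.73 for Selplg, 1.03 for Itgal and 0.63 for Itgb2.

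Itgae, the integrin chain of tissue-resident T cells, lay the other way. It had 18.0 and 26.6 CPM in T and NK cells of KO tumours, against 47.1 and 42.4 CPM in WT tumours, without overlap, and did not pass (log2 fold change -1.09 ± 0.237, adjusted p = 0.0543 by edgeR). It was called without WT tumour 2 (adjusted p = 0.0283), without KO tumour 2 (adjusted p = 0.00159) and by DESeq2 (adjusted p = 0.0346). The makeup of the class differed between the groups. CD8 T cells numbered 1003 and 939 in KO tumours and 80 and 107 in WT tumours, and regulatory T cells 157 and 167 in KO tumours and 106 and 48 in WT tumours. In regulatory T cells Itgae had 235 and 304 CPM in KO tumours and 207 and 265 CPM in WT tumours, which overlapped. In CD8 T cells it had 5.63 and 6.24 CPM in KO tumours and 0 and 20.1 CPM in WT tumours. In gamma-delta T cells it had 115 and 121 CPM in KO tumours, against 227 and 218 CPM in WT tumours (log2 fold change -0.99 ± 0.347, adjusted p = 0.0923 by edgeR). Itgae overlaps Haspin on the other strand, with 820 UMIs in all for Itgae and 5059 for Haspin. The strand rule of the counting is not given in the sources used here. Without it, reads of the pair cannot be told apart. In WT tumour 1, 248 of 683 T and NK cells fell in an unnamed cluster led by Cav1, Tpm2 and Nupr1, against 3 and 8 cells in KO tumours and 8 in WT tumour 2. In WT tumour 2, 221 of 663 fell in another unnamed cluster, led by Rn7sk, with mitochondrial ribosomal RNAs among its top genes and a median of 1275 UMIs per cell, against 101 and 94 cells in KO tumours and 2 in WT tumour 1. Each WT tumour thus held an unnamed cluster that was rare in the other. The 12 markers of mononuclear phagocytes, all above 0, summed to 918 and 786 CPM in T and NK cells of KO tumours and 527 and 495 CPM in those of WT tumours, and the part of these values in the result was not tested.

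Icam1, which is also carried by lymphocytes, and Cd44, which activated lymphocytes carry more of, rose in NK cells of KO tumours. Icam1 had 219 and 264 CPM in KO tumours, against 147 and 93.2 CPM in WT tumours (log2 fold change 0.82 ± 0.217, adjusted p = 0.0347 by edgeR). Cd44 had 273 and 241 CPM in KO tumours, against 166 and 111 CPM in WT tumours (log2 fold change 0.72 ± 0.199, adjusted p = 0.0444). The groups did not overlap for either gene, and WT tumour 2 was lowest for both. They were 2 of 7 members tested in NK cells, where 4.94% of 8449 genes were called. When KO tumour 2 was left out, the adjusted p was 0.255 for Icam1 and 0.126 for Cd44, and DESeq2 gave 0.129 and 0.177. For Cd44 it was also 0.255 without KO tumour 1 and 0.0721 without WT tumour 2, so that of the 4 tumours left out in turn, only without WT tumour 1 did Cd44 pass. With the members kept among the genes used for clustering, Cd44 had an adjusted p of 0.106, and with doublets kept 0.0653. Markers of classes that carry both genes moved with them in NK cells. The 12 markers of mononuclear phagocytes summed to 1119 and 944 CPM in KO tumours (12 above 0 in each) and 697 and 544 CPM in WT tumours (12 and 10 above 0). The 10 neutrophil markers summed to 61.2 and 57.6 CPM in KO tumours (9 and 10 above 0) and 30.3 and 23.3 CPM in WT tumours (3 and 4 above 0). Their part in the result was not tested.

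Further receptors in NK cells ran the same way and did not pass. Itga4 had 321 and 335 CPM in KO tumours and 182 and 209.6 CPM in WT tumours (log2 fold change 0.57 ± 0.2, adjusted p = 0.105 by edgeR). Selplg had 797 and 716 CPM in KO tumours and 494 and 434 CPM in WT tumours (log2 fold change 0.53 ± 0.183, adjusted p = 0.102). Neither gene overlapped between the groups, and both were called without WT tumour 2 (adjusted p = 0.00654 for Itga4 and 0.0354 for Selplg). NK cells numbered 471 and 477 in KO tumours and 162 and 112 in WT tumours.

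Gamma-delta T cells also gave 1 call, Icam1, where 5.34% of 2939 genes were called. It had 494 and 591 CPM in KO tumours, against 365 and 115 CPM in WT tumours, without overlap (log2 fold change 1.14 ± 0.31, adjusted p = 0.0259 by edgeR). The adjusted p was 0.377 without WT tumour 2 and 0.109 without KO tumour 2, and DESeq2 gave 0.346. It was 0.082 with library sizes alone and 0.0539 with doublets kept. The markers of mononuclear phagocytes summed to 1454 and 1675 CPM in these cells in KO tumours (12 of 12 above 0 in each) and 743 and 758 CPM in WT tumours (9 and 8 above 0). The neutrophil markers summed to 63.2 and 34.6 CPM in KO tumours (6 of 10 above 0 in each) and 12.6 and 11.5 CPM in WT tumours (1 above 0 in each). Their part in the result was not tested. Cd44 had 691 and 761 CPM in KO tumours and 315 and 459 CPM in WT tumours, also without overlap, and did not pass (log2 fold change 0.81 ± 0.264, adjusted p = 0.065). These cells numbered 79 and 152 in KO tumours and 48 and 47 in WT tumours.

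Among CD4 T, CD8 T and regulatory T cells, no member was called, where 0.441% of 7709, 0.0765% of 10459 and 2.73% of 5422 genes were called by edgeR. Selplg in CD8 T cells had 675 and 539 CPM in KO tumours and 347 and 337 CPM in WT tumours. Its log2 fold change of 0.73 ± 0.218 did not pass (adjusted p = 0.158), but passed without WT tumour 2 (adjusted p = 0.00748). CD4 T cells numbered 426 and 484 in KO tumours and 27 and 79 in WT tumours. The next lowest adjusted p of a member was in regulatory T cells, again for Selplg, at 526 and 456 CPM in KO tumours and 303 and 293 CPM in WT tumours (log2 fold change 0.63 ± 0.257, adjusted p = 0.2).

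In mononuclear phagocytes, the class with most Itgb2, no gene of 13416 passed (0% called by edgeR, with 2489 genes at an unadjusted p under 0.05 and 564 called by DESeq2). Itgb2 had 525 and 510.3 CPM in KO tumours and 307 and 422 CPM in WT tumours. Cd44 had 792 and 587 CPM in KO tumours and 333 and 496 CPM in WT tumours (log2 fold change 0.78 ± 0.279, adjusted p = 0.213). Icam1 had 101 CPM in both KO tumours and 48.5 and 80.0 CPM in WT tumours (log2 fold change 0.70 ± 0.267, adjusted p = 0.233). These 3 genes did not overlap between the groups. Without WT tumour 2, Cd44 and Icam1 were called (adjusted p = 0.0458 and 0.0294). The cells of this class came from different clusters in the groups. The one led by Gm15056, Nos2 and Arg1 held 1601 and 933 KO cells and 30 and 192 WT cells, and the one led by Chil3 held 369 and 515 KO cells and 779 and 704 WT cells. In the Nos2 cluster Icam1 had 101 and 105 CPM in KO tumours and 103 and 111 CPM in WT tumours, and Itgb2 had 628 and 651 CPM in KO tumours and 452 and 676 CPM in WT tumours. Cd44 had 870 and 656 CPM there in KO tumours and 483 and 624 CPM in WT tumours. Of the 3 genes, Cd44 alone kept the KO tumours above the WT tumours in that cluster. In the Chil3 cluster Icam1 had 90.3 and 83.1 CPM in KO tumours and 47.2 and 87.2 CPM in WT tumours, which overlapped, whereas Itgb2, at 499 and 553 CPM in KO tumours and 369 and 491 CPM in WT tumours, and Cd44, at 927 and 611 CPM in KO tumours and 353 and 578 CPM in WT tumours, did not overlap. The changes against which the other classes were tested for their difference therefore include this difference in clusters, whose part was not tested. Vcam1, which some tissue macrophages carry, had 79.9 and 129.7 CPM in KO tumours and 68.5 and 48.6 CPM in WT tumours (log2 fold change 0.90 ± 0.296, adjusted p = 0.186 by edgeR). Its adjusted p was 0.0409 when KO tumour 1 was left out. It was highest in 2 of the clusters. In the one with 592 and 770 KO cells and 390 and 213 WT cells it had 200.2 and 280.3 CPM in KO tumours and 119.9 and 39.2 CPM in WT tumours, and in a smaller one, with 381 and 59 KO cells, 250.4 and 324 CPM in KO tumours and 112 and 144 CPM in WT tumours.

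Neutrophils gave 1 call, where 4.88% of 8000 genes were called. Selplg had 209 and 239.9 CPM in KO tumours, against 117 and 73.4 CPM in WT tumours, without overlap (log2 fold change 1.62 ± 0.377, adjusted p = 0.0183 by edgeR). WT tumour 1 held 49 neutrophils, against 395 in WT tumour 2 and 737 and 393 in KO tumours. Without KO tumour 1, KO tumour 2 or WT tumour 2 the adjusted p was 0.333, 0.426 and 0.608, and DESeq2 gave 0.183. The 12 markers of mononuclear phagocytes, which also carry Selplg, summed to 959 and 762 CPM in neutrophils of KO tumours (12 above 0 in each) and 545 and 325 CPM in those of WT tumours (7 and 12 above 0), and their part in the result was not tested. Itgb2 had 194 and 159 CPM in KO tumours and 156 and 74.4 CPM in WT tumours (log2 fold change 1.17 ± 0.38, adjusted p = 0.0682). Cd44 had 1679 and 1397 CPM in KO tumours and 934 and 727 CPM in WT tumours (log2 fold change 1.08 ± 0.434, adjusted p = 0.14). Icam1 was as high in WT tumour 1 as in the KO tumours, at 529 and 486 CPM in KO tumours and 525 and 163 CPM in WT tumours (log2 fold change 1.03 ± 0.455, adjusted p = 0.181). Without WT tumour 1, the log2 fold changes were 1.80 for Icam1, 1.42 for Itgb2 and 1.24 for Cd44.

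Dendritic cells gave no call among the members, where 0.112% of 6247 genes were called by edgeR (771 at an unadjusted p under 0.05). Itga4 had 404 and 293 CPM in KO tumours and 228 and 245 CPM in WT tumours. Selplg had 416 and 408 CPM in KO tumours and 259.5 and 258 CPM in WT tumours (log2 fold change 0.65 ± 0.243, adjusted p = 0.297). The groups did not overlap for either gene. Dendritic Icam1 overlapped, at 131 and 115 CPM in KO tumours and 129.8 and 123 CPM in WT tumours.

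**Figure D4:**
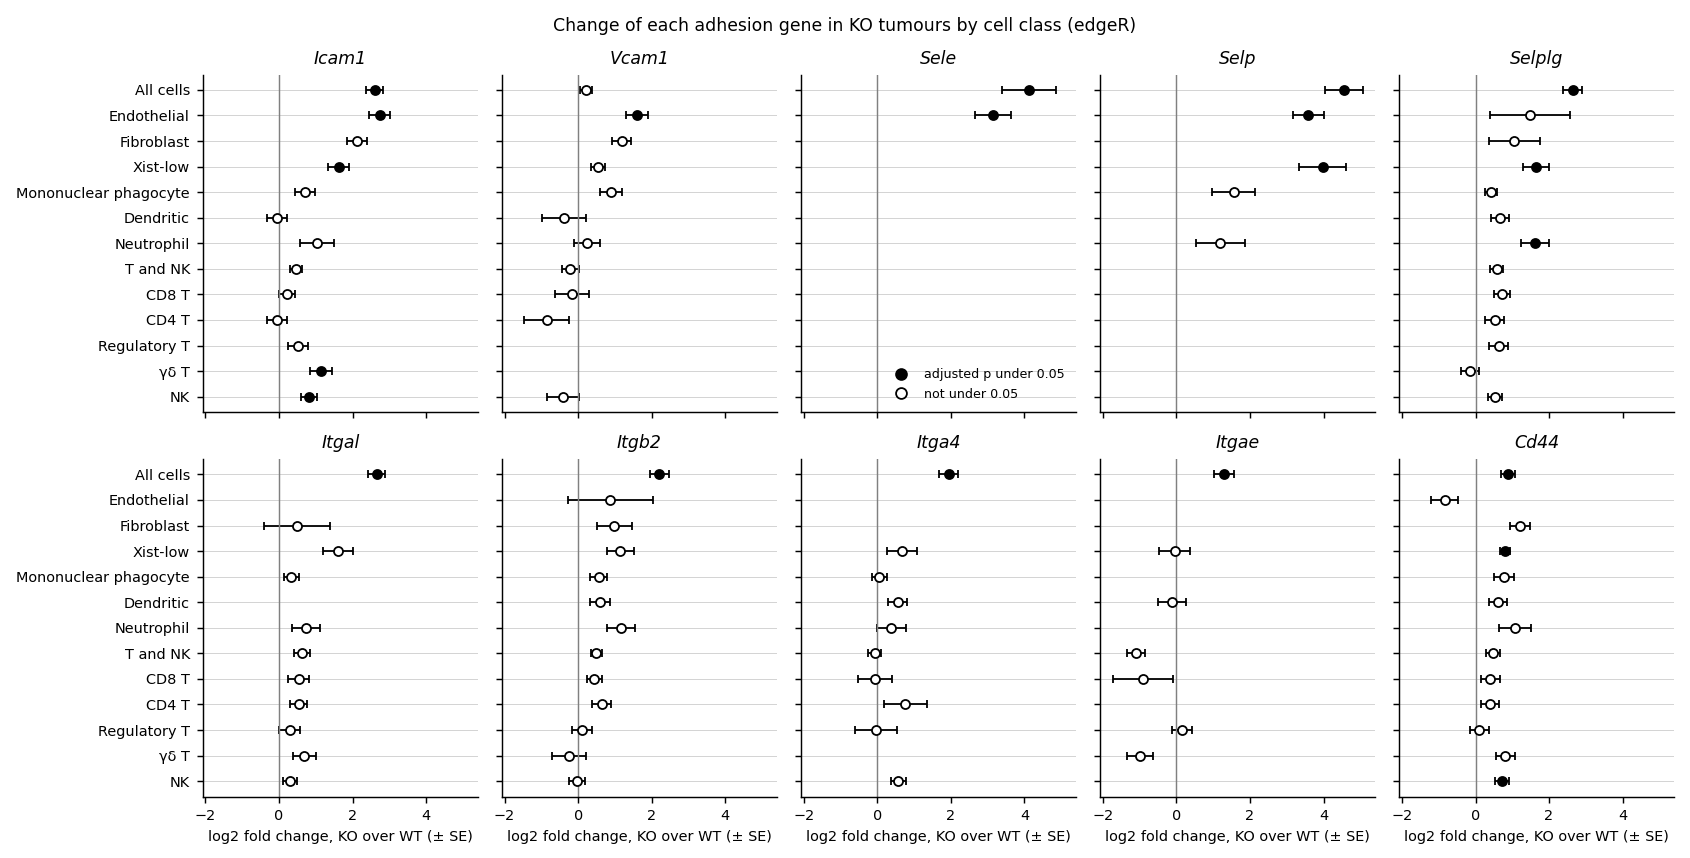
Log2 fold change of KO over WT with its standard error for each gene in each class tested (linear axis of log2 values); filled points passed an adjusted p of 0.05. In endothelial cells Icam1, Sele, Selp and Vcam1 passed, at 2.74, 3.14, 3.59 and 1.59, and Itgae in gamma-delta T cells lies below 0 at -0.99 without passing.

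In whole tumours, with all cells summed, 9 of the 10 genes were called, all higher in KO, where 17.6% of 20161 genes were called in either direction. Icam1 had 80.1 and 48.5 CPM in KO tumours, against 9.14 and 10.3 CPM in WT tumours (log2 fold change 2.60 ± 0.238, adjusted p = 0.00458 by edgeR). Selplg had 124 and 69.0 CPM in KO tumours, against 14.2 and 14.1 CPM in WT tumours (log2 fold change 2.64 ± 0.263, adjusted p = 0.00573). Itgal had 67.0 and 43.1 CPM in KO tumours, against 7.13 and 8.88 CPM in WT tumours (log2 fold change 2.66 ± 0.232, adjusted p = 0.00431). In such sums, more cells of a type and more RNA per cell cannot be told apart. For all 10 genes the KO tumours lay above the WT tumours. The share of all genes ordered this way was not counted, here or in the classes, so this describes the values only. The median log2 fold change over the 10 was 2.41, beside -0.04 over all genes. Sele had 320 and 220 UMIs in KO tumours and 28 and 4 UMIs in WT tumours. It would not have met the count filter from the WT tumours alone and entered the test through the KO tumours. The count of 9 of 10 and the median of 2.41 depend on that group. Vcam1 alone did not pass, at 182 and 149 CPM in KO tumours and 121 and 141 CPM in WT tumours (log2 fold change 0.22 ± 0.163, adjusted p = 0.383). The calls of Cd44 (log2 fold change 0.87 ± 0.191, adjusted p = 0.0315) and Itgae (1.29 ± 0.272, adjusted p = 0.0286) did not hold without WT tumour 1, WT tumour 2 or KO tumour 1. Their adjusted p-values were then 0.206, 0.0972 and 0.0907 for Cd44 and 0.0563, 0.0886 and 0.0837 for Itgae.

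Composition differed widely between the tumours. T and NK cells held 11.4% and 7.62% of all UMIs in KO tumours and 1.36% and 1.52% in WT tumours, and mononuclear phagocytes 23.9% and 14.5% in KO tumours and 5.67% and 5.28% in WT tumours. To hold the class shares fixed, the class levels of each tumour were averaged with the same class shares in all 4 tumours. T and NK cells counted as 1 class there. Differences in the types or clusters within a class, such as those given above for T and NK cells, remain in these values. The ratio of KO over WT was then 1.57 for Selplg, in place of 6.80 as measured, 1.55 for Itgal, in place of 6.88, and 1.47 for Itgb2, in place of 5.04. It was 1.07 for Itga4, in place of 4.19 (0.992 to 1.149 with each tumour left out in turn), and 0.584 for Itgae, in place of 2.65. Endothelial selectins kept larger ratios, at 7.31 for Selp in place of 26.1 and 9.75 for Sele in place of 19.6, but their size rests on the WT tumours. Without WT tumour 2, which had 1 UMI and 0 UMIs of them in 19 endothelial cells, the ratios with class shares held were 4.49 for Selp and 5.55 for Sele, and without WT tumour 1 they were 19.6 and 40.1. As measured they were 17.5 and 11.5 without WT tumour 2 and 51.6 and 67.4 without WT tumour 1. Cd44 moved least, at 1.77 in place of 1.98, and Vcam1 was the only gene with a higher ratio, at 1.56 in place of 1.26. Icam1 was at 1.88, in place of 6.63.

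The classes that held these RNAs differed accordingly. Xist-low cells held 75.7% and 80.5% of Vcam1 UMIs in KO tumours and 93.7% and 96.0% in WT tumours, and 43.0% and 67.6% of Cd44 UMIs in KO tumours and 86.3% and 84.0% in WT tumours. T and NK cells held 69.6% and 68.1% of Itgal UMIs in KO tumours and 38.3% and 47.4% in WT tumours. Endothelial cells held 84.4% and 88.9% of Selp UMIs in KO tumours and 69.1% and 8.33% in WT tumours, although they gave only 0.83% and 0.67% of all UMIs in KO tumours and 0.31% and 0.11% in WT tumours.

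**Figure D5:**
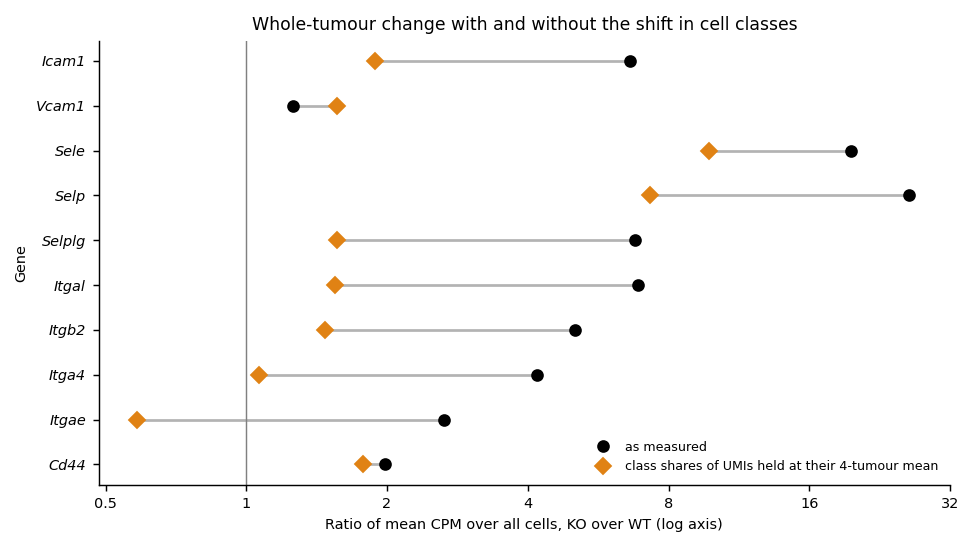
Ratio of KO over WT in whole tumours for the 10 genes (log axis), as measured and with the class shares held the same in all 4 tumours. Holding the shares brings Selplg, Itgal, Itgb2 and Itga4 to between 1.07 and 1.57, whereas Selp and Sele stay at 7.31 and 9.75 (4.49 and 5.55 without WT tumour 2).

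Across 44 class-by-tumour sums, the genes whose log level ran most like each member were looked up among 9081 genes by Pearson's r, as a description over sums that share libraries and classes. Selplg ran with Dock2 (r = 0.981) and Ptprc (0.975), Itgal with Hcst (0.963) and Stk17b (0.935), Itgb2 with Laptm5 (0.949) and Was (0.947), and Itga4 with Sema4a (0.917) and Nckap1l (0.894). Selp ran with Rasip1 (0.901) and Lrg1 (0.868) and Sele with Sox7 (0.84) and Adamts9 (0.819). Icam1 ran with Birc3 (0.854) and Elmo1 (0.844), and Vcam1 with Bag3 (0.86) and Wipi1 (0.858). Cd44 and Itgae had the weakest partners, Hk2 (0.794) and Zeb2 (0.768) for Cd44 and Mllt6 (0.797) and Ranbp2 (0.766) for Itgae.

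A list of 107 other genes of leukocyte adhesion in 8 groups was read beside the members. In endothelial cells 2 of 57 tested were called, both higher in KO and none lower, near the background of 1.73%. They were Itgav, the alpha chain of vitronectin-binding integrins (log2 fold change 1.41 ± 0.288, adjusted p = 0.0435 by edgeR), and St3gal4, a sialyltransferase of selectin ligand synthesis (1.55 ± 0.324, adjusted p = 0.0458). None of the 11 tested inducers of endothelial ligands was called there, with Irf1, an interferon-induced transcription factor, nearest at 1.30 ± 0.289 (adjusted p = 0.0557). Glycam1, a ligand of L-selectin, did not pass either (5.84 ± 1.315, adjusted p = 0.0583).

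In Xist-low cells 7 of 96 genes of the list were higher in KO and 5 lower, beside 4.27% and 4% of all genes. Fn1 and Spp1, which encode the integrin ligands fibronectin and osteopontin, fell (log2 fold change -1.68 ± 0.194, adjusted p = 0.0131, and -1.59 ± 0.214, adjusted p = 0.0176, by edgeR). Itgb7, the beta chain that pairs with the products of Itga4 and Itgae, rose by 0.78 ± 0.111 (adjusted p = 0.0206), and Tln2, a talin that links integrins to actin, fell by 0.63 ± 0.097 (adjusted p = 0.0238). Has2, a hyaluronan synthase and so a source of the ligand of CD44, rose by 0.76 ± 0.127 (adjusted p = 0.0271) and was named for that role after its value was seen. In NK cells 5 of 65 were higher and 1 lower, beside 2.5% and 2.44% of all genes. Itgb3, a partner of Itgav, had a log2 fold change of 1.496 ± 0.235 (adjusted p = 0.00324 by edgeR), and 3 of the 5 belonged to the inducers and their receptors, Il4ra, Tnfrsf1b and Nfkb1. In T and NK cells 5 of 84 were higher and 3 lower, beside 1.31% and 0.986% of all genes. In neutrophils 6 of 62 were higher and 2 lower, beside 3.72% and 1.15% of all genes, and in fibroblasts and mononuclear phagocytes none of 69 and 82 was called in either direction. In whole tumours 46 of 102 were higher and 3 lower, beside 12.9% and 4.72% of all genes. The 46 held 11 of the 12 other leukocyte adhesion receptors, whose median log2 fold change was 2.17, beside -0.04 over all genes.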

How the data were processed

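The deposited matrices hold whole-number UMI counts per gene and cell barcode, not normalized. Cell Ranger 5.0.1 at default settings aligned the reads to mm10 per the labels' protocols; Cell Ranger 6.1.2 is named in the file headers. Seurat 5.1.0 is named in the submitters' processing notes, without its role. The counts of 2 KO and 2 WT tumours were used, and total UMIs per library are given above.

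Barcodes with at least 300 genes and at most 20% mitochondrial UMIs were kept. Doublets were scored with Scrublet in scanpy 1.11.5 (Python 3.11.15), and cells with the top scores were taken out, 0.8% for each 1000 barcodes of the library (715 and 728 KO cells, 1288 and 1043 WT cells). Scrublet's own threshold marked 3.24% and 4.36% of KO cells and 0% and 0.009% of WT cells and was not used. Cells were clustered together without batch integration on 2000 variable genes, without the 10 members, and 30 principal components (15 neighbours, leidenalg 0.10.2 at resolution 1.0). A marker counted when found in 10% of a cluster's cells at 2 times the mean of the other cells. A cluster was named when at least 3 markers of a list counted, with exceptions. Clusters with skeletal muscle genes on top (109 cells) or few UMIs and no marker on top (783 cells) stayed unnamed. The cluster led by Lbp and Id3 (767 cells) had 4 fibroblast markers and was called Xist-low. That name rested on low Xist and Ptprc and on a set list of genes that lead other Xist-low clusters. T and NK cells were clustered again. Names may differ from those of other annotations. Classes with under 25 cells in a tumour were not tested, except endothelial cells, added later. Mast or basophil cells and mural cells were too few.

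UMIs were summed per class and tumour and tested with edgeR 4.0.16 in R 4.3.3 (glmQLFit and glmQLFTest, TMM, filterByExpr, 2 against 2 tumours, two-sided). An exact permutation test of 2 against 2 cannot go below 0.333. DESeq2 1.42.0 was an alternative. On simulated counts of endothelial cells (7521 genes), 71.2% of genes changed 4-fold and 19.4% of those changed 2-fold were recovered, and 97% of those changed 2-fold in Xist-low cells (17964 genes). The genes named were the members, and of the list of other adhesion genes the 4 with the smallest p-value in a class described. The members and lists were chosen with earlier results of these data known.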

Additional observations from a re-analysis of the deposited data

Results flagged for a closer look

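Differences between classes in the size of the KO against WT change passed an edgeR test of the difference itself for Icam1 and Selplg. The change of Icam1 in endothelial cells was larger than that in mononuclear phagocytes by 2.14 ± 0.473 on the log2 scale (adjusted p = 0.0338). The change of Icam1 in fibroblasts was larger than that in mononuclear phagocytes by 1.52 ± 0.405 over the 6 main classes (adjusted p = 0.0438) and by 1.488 ± 0.38 with T and NK cells split into their types (adjusted p = 0.0169). With endothelial cells in the model it was 1.36 ± 0.401 and did not pass (adjusted p = 0.0775). The change of Selplg in Xist-low cells was larger than that in mononuclear phagocytes by 1.104 ± 0.337 with T and NK cells split (adjusted p = 0.0401), where 6.86% of 12881 genes were called, and by 1.24 ± 0.365 over the 6 main classes, which did not pass (adjusted p = 0.0504). Selplg in Xist-low cells was at 6.91 and 3.55 CPM in KO tumours and 1.92 and 1.24 CPM in WT tumours, against 139 and 126 CPM in KO tumours and 99.2 and 106 CPM in WT tumours in mononuclear phagocytes. In all, 2 of 81 differences passed with T and NK cells split. With 2 tumours in each group, no single tumour could be tested as standing apart.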

How the results depend on the processing

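Alternatives were run on 54 changes, those with an unadjusted p under 0.05 in the main edgeR test and Vcam1 over all cells. Of 616 alternatives, 509 kept their direction and side of the threshold, 67 passed where the main test did not and 39 no longer passed. The remaining 1 reversed, Cd44 in endothelial cells at 0.26 with no cells removed as doublets. The 54 were thus picked by their p-value, which favours a stable direction. The other 44 tested pairs of gene and class changed sign in 63 of 518 alternatives. In endothelial cells the 4 calls numbered 3 with DESeq2, where Sele had a log2 fold change of 3.55 and an adjusted p of 0.399, and 3 with doublets kept, where Vcam1 had 0.113. With DESeq2 the members called were 1 in fibroblasts, 1 in T and NK cells, and 0 in gamma-delta T, NK cells and neutrophils. Without a filter on low counts they were 1 in CD8 T cells, 3 in fibroblasts, 2 in gamma-delta T cells, 3 in mononuclear phagocytes, 4 in NK cells, 6 in T and NK cells and 7 in Xist-low cells. With library sizes alone they were 0 in gamma-delta T cells. With doublets kept they were 0 in gamma-delta T cells, 1 in mononuclear phagocytes, 1 in NK cells, 4 in neutrophils and 6 in T and NK cells. At Leiden resolution 2.0 they were 0 in neutrophils and 1 in T and NK cells, and with the members kept in the clustering 1 in NK cells and 1 in T and NK cells. The number of all genes called moved between alternatives too, within the ranges given below. These counts of members, and those with a tumour left out, stand without the share of all genes in the same alternative. The cause of these differences was not tested.

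Replicate numbers share no stated source, and deviations of tumours with the same number correlated at -0.446 over all cells, -0.506 in mononuclear phagocytes, -0.461 in Xist-low cells and -0.102 in T and NK cells, so the numbers were not taken as pairs. With the replicate block the members called were 7 in place of 9 over all cells, 2 in gamma-delta T cells, 1 in NK cells, where Cd44 had an adjusted p of 0.0645, 1 in T and NK cells and 6 in Xist-low cells. With the numbers crossed, a pairing added after seeing the data, they were 3 in fibroblasts, 4 in mononuclear phagocytes, 0 in neutrophils and 1 in T and NK cells.

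Leaving out each tumour in turn gave 7 to 9 called members over all cells, 3 to 4 in endothelial cells, 0 to 6 in Xist-low cells, 0 to 5 in T and NK cells, 0 to 4 in neutrophils, 0 to 3 in CD8 T cells, 0 to 2 in mononuclear phagocytes, 0 to 3 in NK cells, 0 to 1 in CD4 T and gamma-delta T cells, and 0 to 0 in dendritic cells, fibroblasts and regulatory T cells. A lone tumour is then assumed to vary like the other group. The whole-tumour ratios with class shares held were also taken without each tumour, a choice made after seeing the data, and moved by more than 1.5 times for Sele and Selp only, without either WT tumour.

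The number of all genes called moved by more than 1.5 times in every class under at least 1 alternative. It ran from 31 to 739 in endothelial cells (130 as reported), from 537 to 3834 in Xist-low cells (1485), from 1627 to 6289 over all cells (3547), from 257 to 2039 in T and NK cells (289), from 128 to 936 in NK cells (417), from 0 to 1360 in neutrophils (390), from 5 to 228 in gamma-delta T cells (157), from 0 to 282 in regulatory T cells (148), from 6 to 134 in CD4 T cells (34), from 0 to 1156 in CD8 T cells (8), from 0 to 190 in dendritic cells (7), from 0 to 2097 in mononuclear phagocytes (0) and from 0 to 819 in fibroblasts (0). Scaling by library size in place of TMM moved the median log2 fold change of all genes by 0.114 over all cells, 0.112 in CD4 T cells, 0.165 in NK cells and -0.132 in neutrophils. With 19 endothelial cells in WT tumour 2, a count of 0 UMIs allows levels up to 31.9 CPM there, the upper end of its 95% Poisson interval.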
